A study of Mus musculus with 4 samples.

Results

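The genes described here encode the subunits of the mitochondrial oxidative phosphorylation system that are made from nuclear genes, together with the assembly factors of complex I that carry the Ndufaf prefix. They were chosen by symbol, as rows of the gene table that begin with Nduf, Sdha to Sdhd, Uqcr, Cox4 to Cox8 or Atp5. The rule itself uses no measured value, but it was set with earlier results of these data known. Of 15768 genes in the table, 93 were members: 42 of complex I, 4 of complex II, 8 of complex III, 14 of complex IV, 17 of complex V and 8 Ndufaf assembly factors. The prefix placed Ndufa4 under complex I, although its protein is now counted with complex IV, and placed Cox7a2l, a factor that helps to join complexes III and IV into supercomplexes, under complex IV. It left out Cyc1, the gene of cytochrome c1 in complex III, which was counted in a list of electron carriers instead.

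The cells were JoMa1.3, a conditionally immortalised mouse line described in the labels as neural crest stem cells and kept in medium with epidermal and fibroblast growth factors and chick embryo extract. The treated cells, labelled with an Lkb1 knockdown genotype, received siRNAs against Stk11, the gene of the kinase LKB1, as a pool. The control cells, labelled wild type, received a pool of siRNAs with no target. Both pools were used at 60 nM and RNA was taken after 72 h. Both jetPRIME and RNAiMAX are named as reagents, without a statement of which library had which. Each group held 2 bulk RNA-seq libraries of 150 bp read pairs, 1 from batch 1 and 1 from batch 2, and the study used them to look for effectors downstream of Lkb1 loss.

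Oxidative phosphorylation passes electrons from NADH, at complex I, and from succinate, at complex II, through ubiquinone to complex III, and then through cytochrome c to complex IV, where oxygen is reduced. The proton gradient built on the way drives ATP synthesis by complex V. All of these complexes but complex II mix subunits from nuclear and mitochondrial DNA. LKB1 is best known as the kinase that activates AMPK, the cell's sensor of energy state.

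The libraries held between 17426719 and 19324675 gene counts. Stk11, the siRNA target, had 36.3 and 36.9 FPKM in the Lkb1 siRNA libraries, against 52.7 and 52.1 FPKM in the control siRNA libraries. For Stk11 the log2 fold change was -0.55 with an SE of 0.0659, and the edgeR adjusted p was 0.0378 without and 1.28e-22 with the batch block. FPKM, the authors' deposited value, is a level scaled to transcript length and to library size. Of 13 neural crest markers, Sox10, Foxd3 and Msx2 had no row. The other 10 had a row, and 9 of them reached 1 FPKM. Their summed level was 199.7 and 192 FPKM after Lkb1 siRNA, against 187 and 199.9 FPKM with control siRNA. Summed markers of smooth muscle and mesenchyme were 698 and 756 FPKM in the Lkb1 siRNA libraries, against 858 and 951 FPKM in the control siRNA libraries. Of these 6 markers 4 reached 1 FPKM, and Col1a1 was the highest in every library. Acta2, Tagln and Col1a1 were lower without overlap and Pdgfra overlapped. Cnn1 and Myh11 had at most 0.05 and 0.07 FPKM. Summed markers of glia stayed below 1 FPKM in all 4 libraries. Summed neuron markers, of which Tubb3 and Uchl1 reached 1 FPKM, were 31.45 and 24.99 FPKM in the Lkb1 siRNA libraries, against 24.62 and 19.79 FPKM in the control siRNA libraries. The few blood and epithelial markers with a row summed to between 0.03 and 1.51 FPKM per library. The part of these cell states in the results below was not tested, and in bulk RNA a smaller number of cells of a type and less RNA per cell cannot be told apart.

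Most of the members were among the most abundant genes of these cells. Of the 93, 87 had enough reads to be tested. By mean FPKM, 72 of those 87 were among the top 10% of all 12222 tested genes, that is at 79.1 FPKM or more. The median level of tested members was 181 FPKM, against 12.9 FPKM for all tested genes. By complex the median was 144 FPKM for complex I, 136 FPKM for complex II, 222 FPKM for complex III, 591 FPKM for complex IV and 444 FPKM for complex V, and 14.2 FPKM for the Ndufaf genes. The members took up 3.73 and 3.68% of all TPM, a level per length with the same sum in each library, in the Lkb1 siRNA libraries, against 3.77 and 3.71% in the control siRNA libraries.

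**Figure D1:**
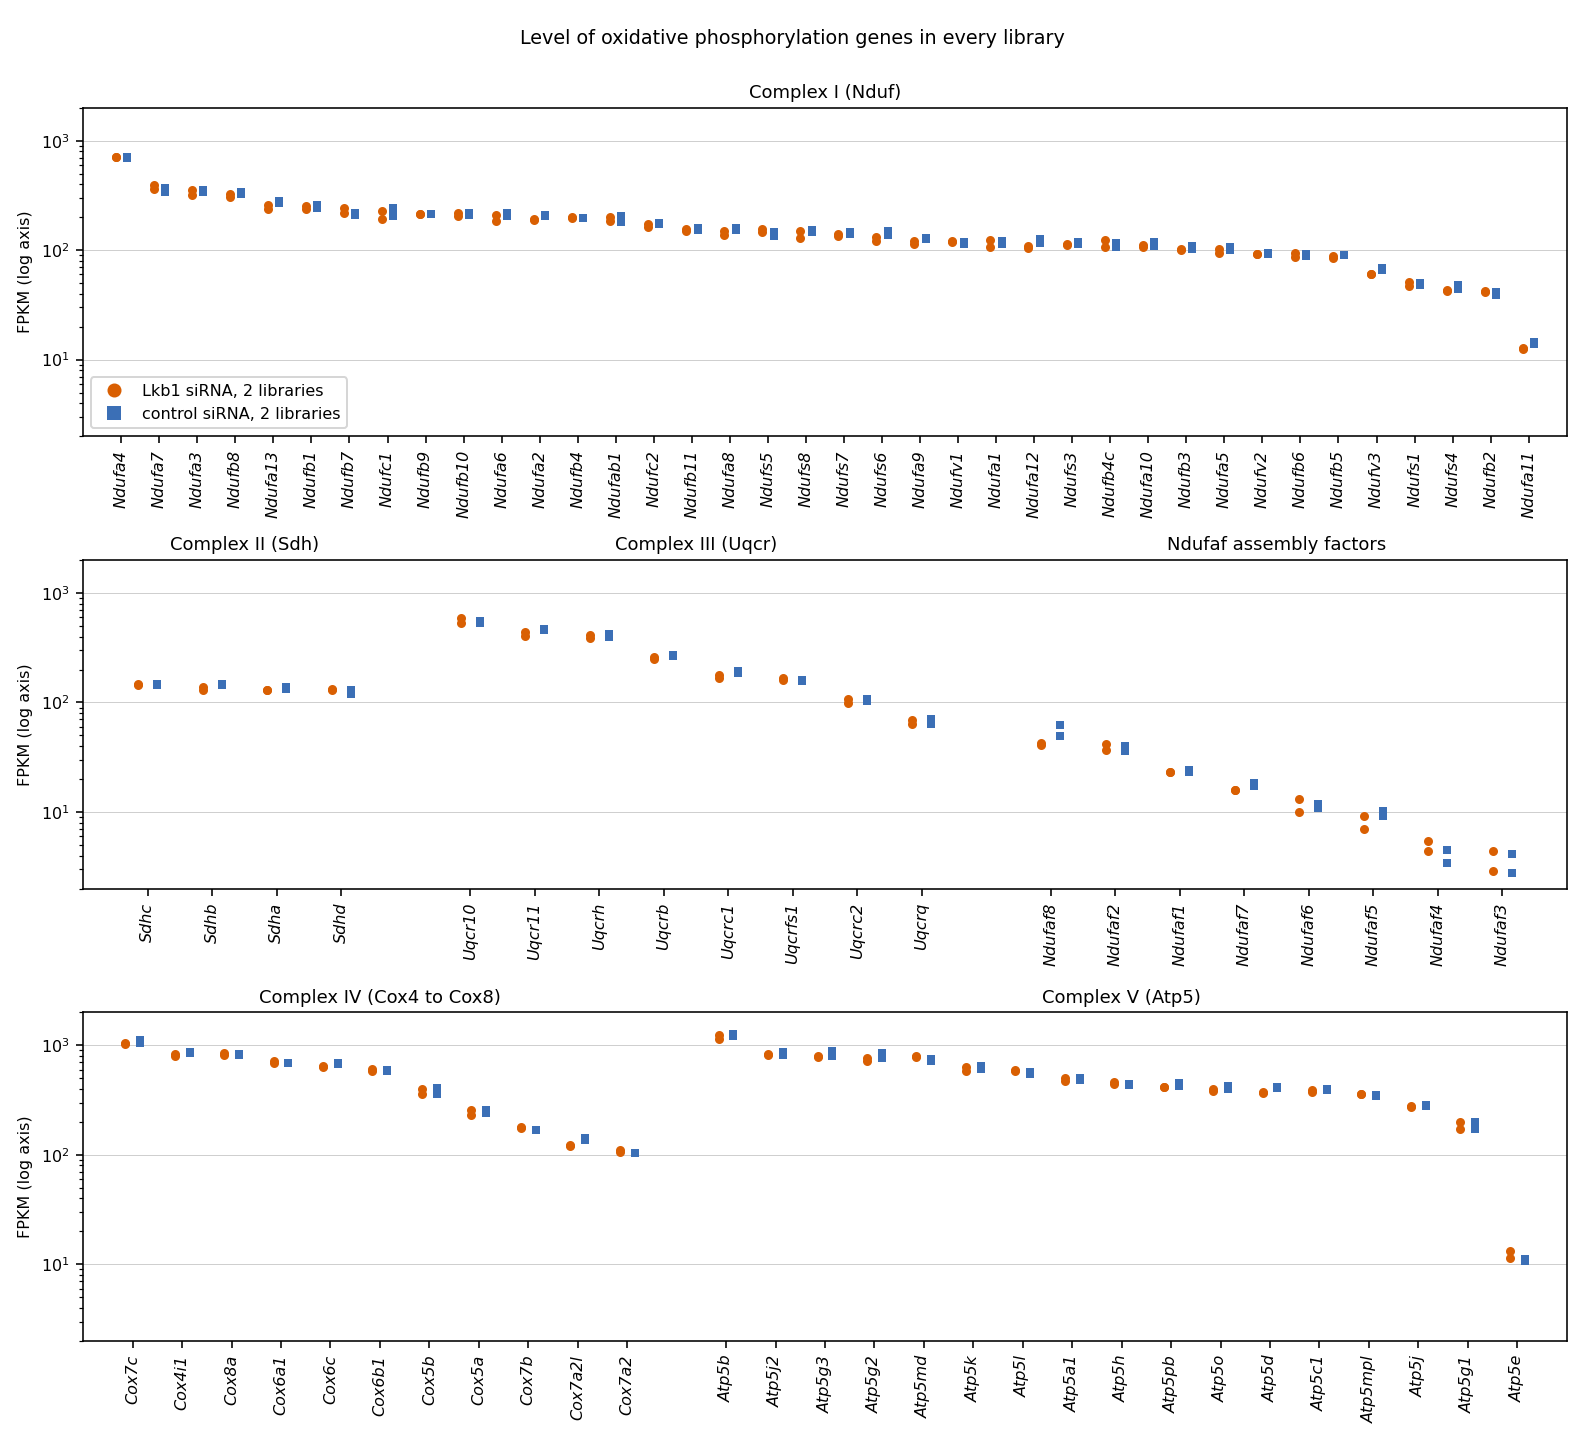
Level in FPKM (log axis) of the tested members, 1 left out, in every library, with Lkb1 siRNA libraries as circles left of the control siRNA libraries as squares, sorted by mean within each complex. Subunit genes lie mostly above 100 FPKM, the Ndufaf genes below them, and the 2 groups lie close together for almost every gene.

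The median subunit gene was slightly lower after Lkb1 siRNA in all 5 complexes, and no single gene passed the test without the batch block. In counts scaled by TMM, 75 of the 87 tested members were lower and 12 higher, where 49.8% of all tested genes were lower. Within batches, 66 of the 87 were lower in both, where 33.4% of all genes were. The median log2 fold change of the members was -0.0887, a small difference, and it was -0.0939 within batch 1 and -0.0667 within batch 2; over all tested genes the median was 0.000494. No member passed the edgeR test at an adjusted p of 0.05, where 6 genes (0.0491%) were lower and 4 (0.0327%) were higher over all genes tested. At an unadjusted p below 0.05, 17 members were lower and 0 higher, where the background was 5.53% lower and 5.61% higher. DESeq2 also called 0 members, against a background of 0.254% lower and 0.147% higher, and limma on log2(FPKM + 1) called 0 genes in all. Without control siRNA replicate 2, edgeR called 2 members lower, Ndufa12 and Ndufaf8, where 0.712% of genes were.

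With the batch as a block, which compares the 2 libraries of each batch with each other, edgeR called 19 members lower and 0 higher, against a background of 6.99% of genes lower and 6.59% higher. Of the 19, 17 were among the shortest 10% of genes by the length that count and FPKM imply. In that group 11.8% of all genes were called lower. The 19 were 8 genes of complex I (Ndufa12, Ndufa13, Ndufa2, Ndufa6, Ndufa8, Ndufa9, Ndufs6 and Ndufs8), 1 of complex II (Sdhb), 2 of complex III (Uqcr11 and Uqcrc1), 3 of complex IV (Cox6c, Cox7a2l and Cox7c), 4 of complex V (Atp5d, Atp5g2, Atp5g3 and Atp5o) and Ndufaf8. Their fold changes were small, from -0.13 for Atp5o to -0.49 for Ndufaf8 on the log2 scale. Every SE given here comes from the fit without the block. The common biological coefficient of variation, edgeR's estimate of the spread between libraries, was 6.39% without the block. With the block it was 3.15%, which is the spread left after the batch difference is taken out. That fit leaves little to estimate the spread of each gene, so its p-values lean on the spread shared over genes. In CPM, counts scaled to library size, the 2 Lkb1 siRNA libraries lay below both control siRNA libraries for 49 members, where 21.4% of all genes did, and above both for 0, where 21.2% did.

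**Figure D2:**
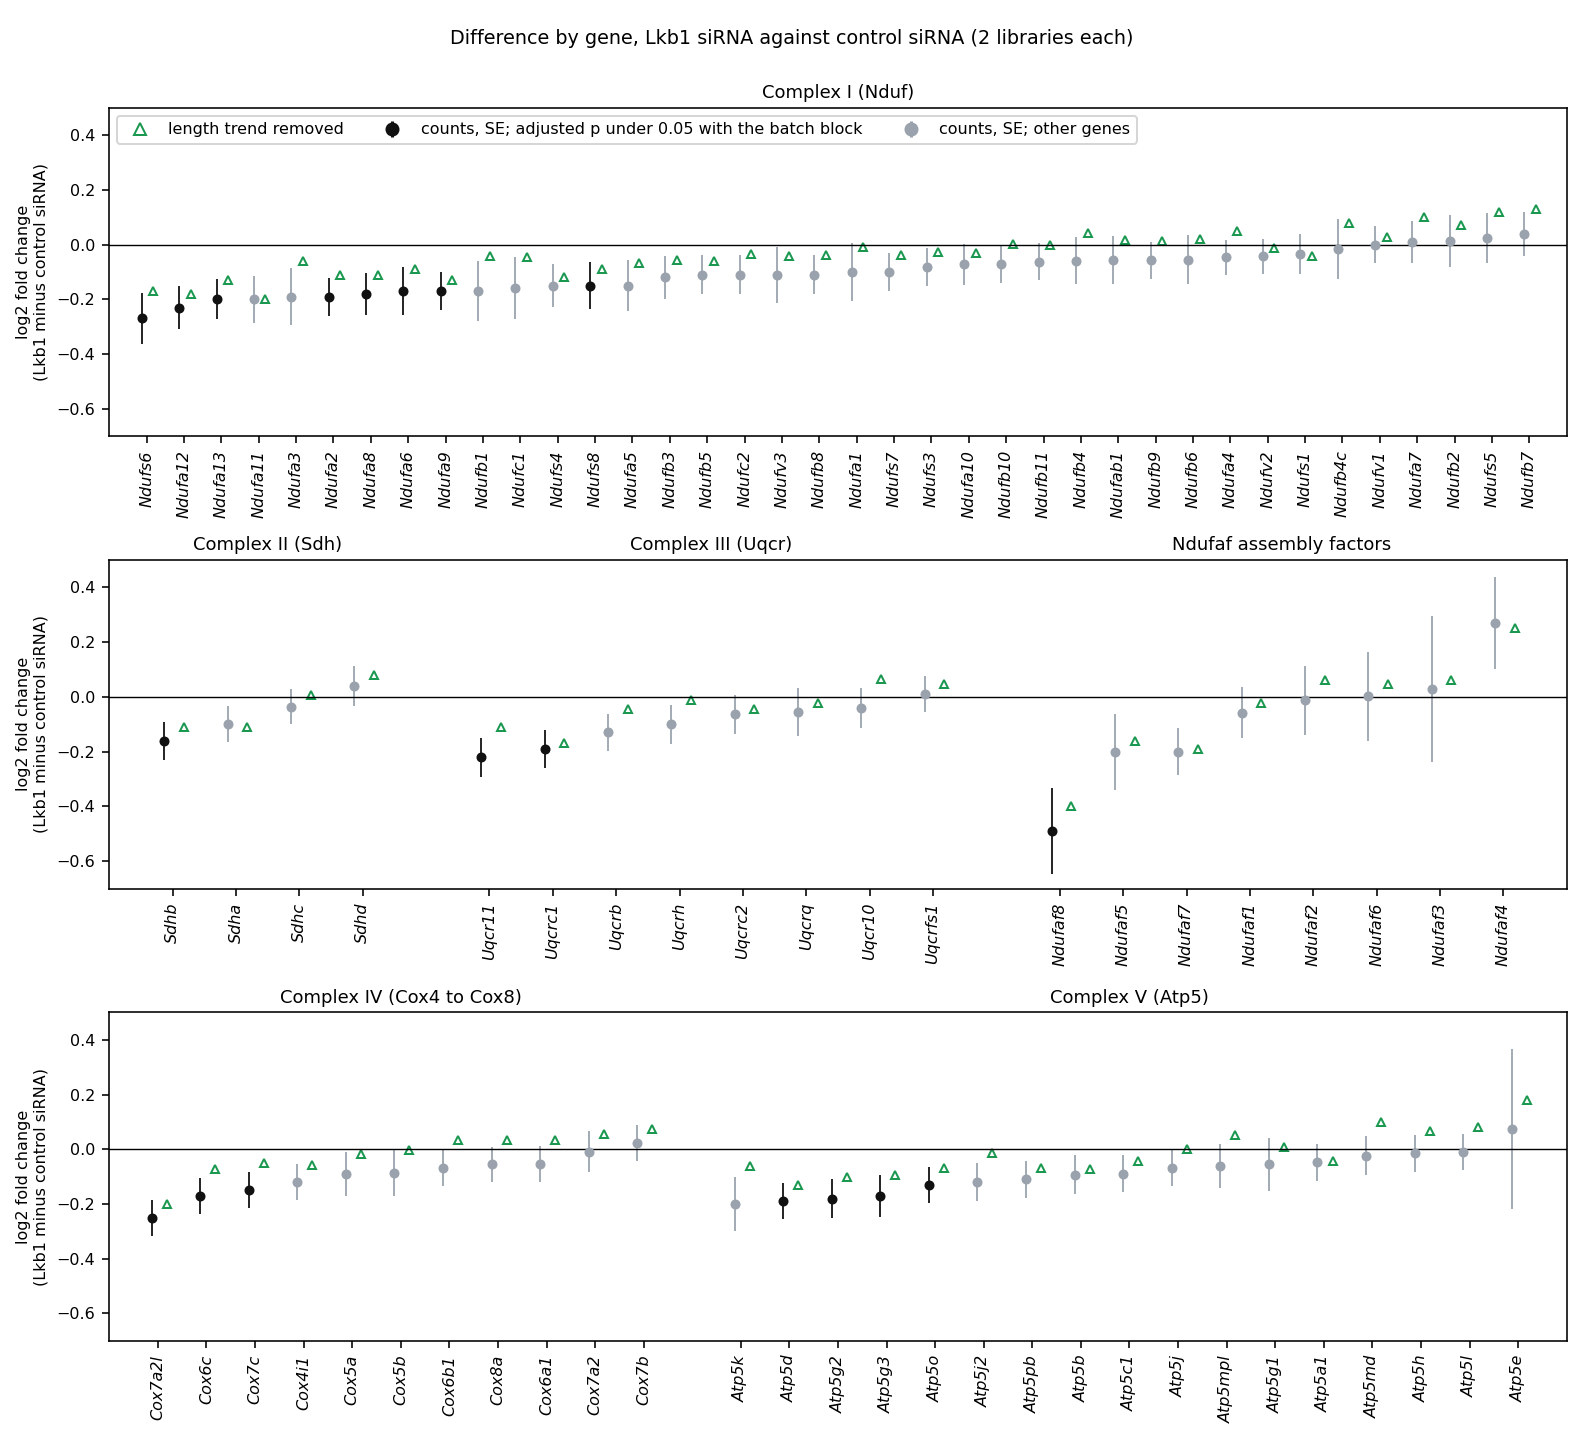
The log2 fold change (Lkb1 siRNA minus control siRNA) of the tested members, 1 left out, from 2 libraries per group, by complex. Each has its SE from the fit without the block. Dark points passed an edgeR adjusted p of 0.05 with the batch block. Triangles are the values after the trend with length was taken out. The dark points all lie below 0, from -0.13 to -0.49, and the triangles lie nearer to 0 than the points for most of the lower genes.

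The implied length moved with this difference. Subunit genes are short: the median length implied by count and FPKM was 408 nt for the tested members, against 2689 nt for all tested genes, and 66 of the 87 members (75.9%) fell in the shortest 10% of genes. Of all genes in that group 68.3% were lower. Its median log2 fold change was -0.0687 over all genes and -0.102 over the members, and over all genes it was 0.0384 in the longest 10%. Members of at most 1000 nt had a median of -0.0955, beside -0.0657 for the 1382 tested genes of that span. In CPM the groups did not overlap for 41 of these 68 members, all lower, beside 485 lower and 141 higher of the 1382 genes. Of the 68, 75% were lower in both batches, beside 48.6% of the 1382. The 19 members above 1000 nt had a median of -0.0572, beside 0.00794 for all genes above 1000 nt. After a smooth trend of fold change with length was taken out, the median of the members was -0.0323, with the Lkb1 siRNA libraries below both controls for 25 members, where 20.6% of genes were. They lay above both for 15, where 20.8% of genes did.

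**Figure D3:**
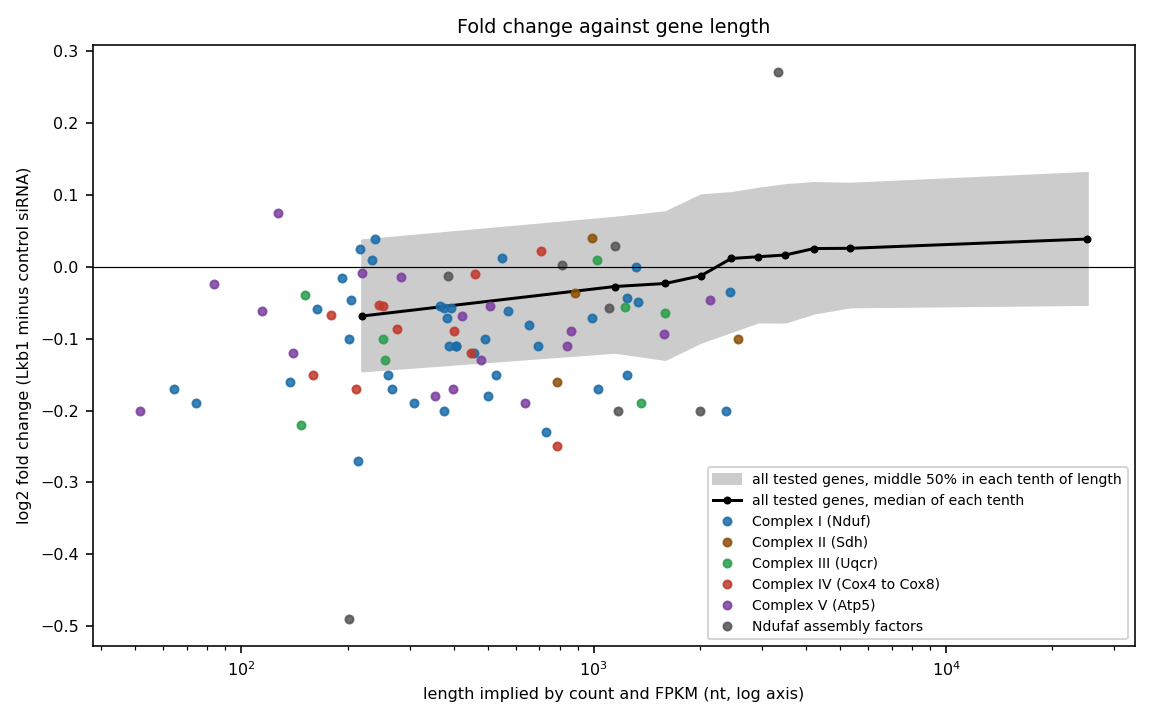
The log2 fold change (Lkb1 siRNA minus control siRNA) against the implied length in nt (log axis) for each tested member, with the median and middle 50% of all tested genes in 10 equal groups by length, each drawn at the geometric middle of its span. The medians of all genes go up with length, from -0.0687 to 0.0384, and most members lie at the short end and below the line.

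With both the length trend removed and the batch block, edgeR called 5 members lower (Cox7a2l, Ndufa12, Uqcrc1, Atp5d and Ndufaf8) and 0 higher, against a background of 6.56% lower and 5.91% higher. A related measure was the effective length that count and FPKM imply in each library, which shrinks as the sequenced fragments get longer. Over members of at least 10 FPKM the median difference, Lkb1 siRNA minus control siRNA within a batch, was -7.14 nt in batch 1 and -4.86 nt in batch 2. Over all genes of that level it was -7.11 nt in batch 1 and -4.90 nt in batch 2. When this library-specific length entered the fit, a choice made after the data were seen, the median log2 fold change of the members was -0.0594. With the batch block as well, edgeR called 12 lower and 0 higher, against a background of 6.47% lower and 6.82% higher.

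FPKM divides by that length, so levels and count-based fold changes need not have the same sign. Mean FPKM was lower after Lkb1 siRNA for 59 of the 87 members, where 39.6% of all genes were lower, and higher for 28. Lower in counts but higher in FPKM were 16 members (18.4%) and 10.4% of all genes. In FPKM the Lkb1 siRNA libraries lay below both controls for 31 members, where 14.5% of genes did, and above both for 10, where 27.7% did. Ndufa4, the most abundant of the genes listed under complex I, is such a case. It had 712 and 708 FPKM in the Lkb1 siRNA libraries, against 705 and 688 FPKM in the control siRNA libraries. Its count-based log2 fold change was -0.05 with an SE of 0.0653.

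Promoter windows of 5 members are shown because they carry the letters of factors known to control respiratory genes. They include genes that were lower with the block and Sdha, which was not called, and were picked with the values in view. The windows come from RefSeq on GRCm38.p6, run from 250 bases before to 50 after the start of the gene, and were matched by gene ID for 75 of the 93 members. They are written 5′ to 3′ on the strand of the gene, with matches in capitals. Uqcrc1 (chr9:108936398-108936697, plus strand) and Sdha (chr13:74350191-74350490, minus strand) hold NRF1 letters. Ndufs6 (chr13:73328433-73328732, minus strand) holds NRF1 and then YY1 letters, and Ndufaf8 (chr11:120098684-120098983, plus strand) holds YY1 letters. Atp5g3 (chr2:73911277-73911576, minus strand) holds the letters of the oestrogen-related receptors, ERR, on the other strand and then those of NRF1.
Uqcrc1: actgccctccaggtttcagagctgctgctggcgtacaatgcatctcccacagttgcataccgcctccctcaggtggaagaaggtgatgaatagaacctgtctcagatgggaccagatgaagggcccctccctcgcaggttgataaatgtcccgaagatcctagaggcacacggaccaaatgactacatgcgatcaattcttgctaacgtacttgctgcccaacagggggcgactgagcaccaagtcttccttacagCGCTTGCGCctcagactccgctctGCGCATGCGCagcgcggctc
Ndufs6: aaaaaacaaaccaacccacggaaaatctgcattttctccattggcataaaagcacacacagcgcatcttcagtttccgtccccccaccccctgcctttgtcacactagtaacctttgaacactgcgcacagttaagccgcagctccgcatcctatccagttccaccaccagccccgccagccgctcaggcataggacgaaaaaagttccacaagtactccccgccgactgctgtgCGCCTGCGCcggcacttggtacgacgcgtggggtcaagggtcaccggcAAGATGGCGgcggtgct
Ndufaf8: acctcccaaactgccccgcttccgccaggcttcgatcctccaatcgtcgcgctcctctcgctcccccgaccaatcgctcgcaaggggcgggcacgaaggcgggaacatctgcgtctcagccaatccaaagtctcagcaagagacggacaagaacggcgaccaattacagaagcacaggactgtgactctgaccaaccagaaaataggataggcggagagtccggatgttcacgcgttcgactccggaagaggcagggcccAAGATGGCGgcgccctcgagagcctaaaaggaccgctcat
Atp5g3: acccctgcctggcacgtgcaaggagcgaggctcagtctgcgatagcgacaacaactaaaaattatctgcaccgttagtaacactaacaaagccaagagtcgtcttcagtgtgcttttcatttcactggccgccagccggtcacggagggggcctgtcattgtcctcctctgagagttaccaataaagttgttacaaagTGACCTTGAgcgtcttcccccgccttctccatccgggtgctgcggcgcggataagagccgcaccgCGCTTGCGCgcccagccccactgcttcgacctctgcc
Sdha: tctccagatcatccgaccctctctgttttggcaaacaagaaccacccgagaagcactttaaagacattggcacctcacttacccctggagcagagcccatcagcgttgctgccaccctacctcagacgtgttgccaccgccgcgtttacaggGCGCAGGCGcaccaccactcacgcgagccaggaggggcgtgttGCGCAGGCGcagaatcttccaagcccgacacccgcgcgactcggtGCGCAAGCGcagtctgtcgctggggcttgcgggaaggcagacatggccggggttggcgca

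The letters searched on both strands were GCGCANGCG for NRF1, CCGGAAGT for the ETS family with GABPA, AANATGGCG for YY1 and TCAAGGTCA for ERR. No matches to different motifs overlapped in a member. NRF1 letters stood in 22 of the 75 windows (29.3%), in 15.7% of the windows of all tested genes and in 7.03% of all windows listed. Of the members lower with the batch block 8 of 17 windows (47.1%) held them, and of the other tested members 14 of 56 (25%). The same shares were 17.6% and 14.3% for YY1, 5.88% and 7.14% for ETS, and 5.88% and 1.79% for ERR. These differences were not tested. YY1 letters were in 11 member windows (14.7%) and in 6.05% of those of tested genes. ETS letters were in 5 (6.67%) and in 9.32%, and ERR letters in 2 (2.67%) and in 0.287%. These are matches of letters in a fixed window, not measured binding.

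Complex I, which oxidises NADH, had a median log2 fold change of -0.104 over 39 tested genes, of which 34 were lower. That was the lowest of the classes in this fit, but with the length trend removed complex II, at -0.0516, and complex V, at -0.0438, lay below the -0.0391 of complex I. Without Lkb1 siRNA replicate 1 it was again -0.104, and the medians of complexes III, IV and V and of the Ndufaf genes lay below it. Its 7 nuclear core subunits, which hold the flavin and the iron-sulphur clusters, had a median of -0.0490, and its 32 accessory subunits one of -0.111. The core genes have a median implied length of 1246 nt and the accessory genes one of 376 nt, and with the length trend removed the medians were -0.0273 and -0.0394. In the peripheral arm, which takes electrons from NADH, Ndufs6 encodes a zinc-binding subunit and had 131 and 121 FPKM in the Lkb1 siRNA libraries, against 136 and 151 FPKM in the control siRNA libraries. For Ndufs6 the log2 fold change was -0.27 with an SE of 0.0945, and the edgeR adjusted p was 0.358 without and 0.00997 with the batch block. Ndufa12, an accessory subunit of the same arm, had 109 and 104 FPKM in the Lkb1 siRNA libraries, against 128 and 116 FPKM in the control siRNA libraries. For Ndufa12 the log2 fold change was -0.23 with an SE of 0.0776, and the edgeR adjusted p was 0.331 without and 0.000599 with the batch block. For both genes the groups did not overlap. With length removed and the block, Ndufa12 was still called lower (edgeR adjusted p = 0.0124) and Ndufs6 was not (edgeR adjusted p = 0.135). Without control siRNA replicate 1 the log2 fold change of Ndufa12 was -0.15.

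Ndufa13, also known as GRIM-19 and placed where the arms meet, had 237 and 259.9 FPKM in the Lkb1 siRNA libraries, against 270.4 and 279 FPKM in the control siRNA libraries. Ndufa13 differed by -0.20 on the log2 scale (edgeR adjusted p = 0.00259 with the block). Ndufa9, an accessory subunit near the site of ubiquinone, had 121 and 113 FPKM, against 129 and 128 FPKM in the controls. Ndufa9 differed by -0.17 on the log2 scale (edgeR adjusted p = 0.00848 with the block). Ndufa2, an accessory subunit of the peripheral arm, had 188 and 191 FPKM after Lkb1 siRNA, against 208 and 207 FPKM in the controls. Ndufa2 differed by -0.19 on the log2 scale (edgeR adjusted p = 0.019 with the block). These 3 genes each had both Lkb1 siRNA libraries below both controls. Ndufa8, a subunit on the intermembrane side, likewise had 136 and 149.7 FPKM, against 159 and 153 FPKM in the controls. Ndufa8 differed by -0.18 on the log2 scale (edgeR adjusted p = 0.0211 with the block). Overlap in FPKM was seen for Ndufa6, an accessory subunit, with 185 and 209 FPKM, against 204 and 220.4 FPKM in the controls. Ndufa6 differed by -0.17 on the log2 scale (edgeR adjusted p = 0.0442 with the block). Ndufs8, a core iron-sulphur subunit, overlapped in the same way at 149 and 128 FPKM, against 153 and 145 FPKM in the controls. Ndufs8 differed by -0.15 on the log2 scale (edgeR adjusted p = 0.0488 with the block). None of the genes in this paragraph passed without the block. None passed with the length trend removed and the block, where the edgeR adjusted p ran from 0.0622 for Ndufa9 to 0.392 for Ndufa6. Single libraries moved several of these fold changes. Without Lkb1 siRNA replicate 1 the log2 fold change was -0.13 for Ndufa13, -0.11 for Ndufa8, -0.077 for Ndufa6 and -0.26 for Ndufs8. Without Lkb1 siRNA replicate 2 it was -0.045 for Ndufs8 and -0.27 for Ndufa6.

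The catalytic genes Ndufv1 and Ndufs1 overlapped between the groups. Ndufv1, which binds NADH and the flavin, had 122 and 119 FPKM in the Lkb1 siRNA libraries, against 120.0 and 115 FPKM in the control siRNA libraries. Ndufs1, the largest iron-sulphur subunit, had 51.2 and 47.4 FPKM, against 50.6 and 47.7 FPKM. Ndufb7, a membrane-arm subunit, had the highest fold change of the class, 0.04 with an SE of 0.0814. Its levels were 242 and 218 FPKM after Lkb1 siRNA, against 219.8 and 207 FPKM in the controls. Ndufa11, a membrane-arm subunit, was the lowest in level at 12.9 and 12.6 FPKM, against 13.9 and 14.6 FPKM in the controls. Its implied length of 2367 nt is long for this class. Ndufb4 and Ndufb4c share reads, as their counts that are not whole numbers show, so their split is uncertain. Ndufa4l2, Ndufb4b and Ndufs6b had at most 3.35 reads in any library and were not tested.

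All 4 genes of complex II, the succinate dehydrogenase that also serves the TCA cycle, had similar levels, between 128 and 147 FPKM on average. Sdhb, the iron-sulphur subunit, had 138 and 130.0 FPKM in the Lkb1 siRNA libraries, against 147 and 143 FPKM in the control siRNA libraries. For Sdhb the log2 fold change was -0.16 with an SE of 0.069, and the edgeR adjusted p was 0.428 without and 0.0174 with the batch block. With the length trend removed and the block it was 0.135. Sdha, the flavoprotein, had 129 and 131 FPKM in the Lkb1 siRNA libraries, against 139 and 134 FPKM in the control siRNA libraries. Sdha differed by -0.10 on the log2 scale (edgeR adjusted p = 0.148 with the block). Both catalytic genes were lower without overlap. The membrane anchors had log2 fold changes nearer to 0. Sdhc, with 146 and 148 FPKM, against 146 and 147 FPKM in the controls, had -0.04 with an SE of 0.0644. Sdhd, with 134 and 130.0 FPKM, against 129 and 119.8 FPKM in the controls, had 0.04 with an SE of 0.0721. Sdha also has a long implied length for a member, 2565 nt, and its value with length removed, -0.11, was close to its value without.

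In complex III, which passes electrons from ubiquinol to cytochrome c, 7 of 8 genes were lower and the median log2 fold change was -0.0820. Uqcrc1, a core protein, had 177 and 166 FPKM in the Lkb1 siRNA libraries, against 194 and 187 FPKM in the control siRNA libraries. For Uqcrc1 the log2 fold change was -0.19 with an SE of 0.0697, and the edgeR adjusted p was 0.358 without and 0.00145 with the batch block. The difference was alike within the batches, -0.19 in batch 1 and -0.20 in batch 2, and remained with the length trend removed and the block (edgeR adjusted p = 0.00799). Its partner Uqcrc2 had 107 and 99.9 FPKM after Lkb1 siRNA, against 107 and 104 FPKM in the controls. Uqcrfs1, the Rieske iron-sulphur protein, had 168 and 159.9 FPKM, against 156 and 160.4 FPKM in the controls. The groups overlapped in both genes.

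The small subunits of complex III were more abundant per length than its core proteins, with a median of 404 FPKM against 161 FPKM for the core and Rieske genes. Uqcr11 had 441 and 405 FPKM in the Lkb1 siRNA libraries, against 466 and 459 FPKM in the control siRNA libraries. For Uqcr11 the log2 fold change was -0.22 with an SE of 0.0711, and the edgeR adjusted p was 0.324 without and 0.00368 with the batch block. With the length trend removed its log2 fold change was -0.11 and its edgeR adjusted p with the block was 0.207. The highest gene, Uqcr10, had 590.4 and 529 FPKM, against 552 and 529.6 FPKM in the controls. The lowest, Uqcrq, had 69.7 and 63.2 FPKM, against 71.4 and 63 FPKM in the controls. Uqcrb, with 261 and 252 FPKM, against 271 and 266 FPKM in the controls, was lower without overlap. Uqcrh, the hinge protein at cytochrome c1, overlapped at 409 and 388 FPKM, against 422 and 394 FPKM in the controls.

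Complex IV, cytochrome c oxidase, had 10 of 11 tested genes lower and a median log2 fold change of -0.0861, which became -0.00122 with the length trend removed. Cox7a2l was the member with the smallest p of all. It had 119.7 and 123 FPKM in the Lkb1 siRNA libraries, against 137 and 143 FPKM in the control siRNA libraries. For Cox7a2l the log2 fold change was -0.25 with an SE of 0.0657, and the edgeR adjusted p was 0.229 without and 6.83e-05 with the batch block. That is a change of -15.9% in counts, with a 95% interval from -24.1 to -6.84%. Within batches the log2 fold change was -0.26 in batch 1 and -0.25 in batch 2. Its near relative Cox7a2, the subunit found in most tissues, had 105 and 110.1 FPKM after Lkb1 siRNA, against 105 and 105 FPKM in the controls. Of the FPKM of Cox7a1, Cox7a2 and Cox7a2l together, Cox7a2l made up 52.9 and 52.6% in the Lkb1 siRNA libraries, against 56.6 and 57.4% in the control siRNA libraries. Cox7a2 made up 46.5 and 47.1%, against 43.1 and 42.1% in the controls.

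The forms of complex IV subunits present were those of most tissues rather than of muscle or lung. Cox4i1 had 837 and 799 FPKM in the Lkb1 siRNA libraries, against 866 and 856 FPKM in the control siRNA libraries. Cox4i2, the lung form, had 1 read in 1 control siRNA library and 0 in the other 3. Cox6a1 had 712 and 685 FPKM, against 692 and 690.4 FPKM in the controls. Cox6a2, the heart and muscle form, had 1 and 2 reads in the Lkb1 siRNA libraries, against 5 and 4 in the control siRNA libraries. Cox7a1, likewise a heart and muscle form, had between 1 and 2 reads per library. Other subunits were abundant and overlapped between the groups in FPKM. Cox8a had 844 and 821 FPKM, against 816 and 836 FPKM in the controls, and Cox6b1 had 583 and 604 FPKM, against 584 and 593 FPKM. Cox5b had 399 and 356 FPKM, against 404 and 362 FPKM in the controls, and Cox5a had 258 and 229.9 FPKM, against 259 and 241 FPKM.

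A pair of short complex IV genes passed with the block. Cox7c, the most abundant of the class, had 1042 and 1026 FPKM in the Lkb1 siRNA libraries, against 1050.1 and 1111 FPKM in the control siRNA libraries. Cox7c differed by -0.15 on the log2 scale (edgeR adjusted p = 0.0211 with the block). Cox6c had 644 and 636 FPKM after Lkb1 siRNA, against 689.6 and 675 FPKM in the controls. Cox6c differed by -0.17 on the log2 scale (edgeR adjusted p = 0.0104 with the block). Both have short implied lengths, 159 and 211 nt. With the length trend removed and the block, the edgeR adjusted p was 0.598 for Cox7c and 0.378 for Cox6c. Cox7b had the highest fold change of the class, 0.02 with an SE of 0.0649, at 180.2 and 176 FPKM, against 170.3 and 169.9 FPKM in the controls.

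Complex V, the ATP synthase, had 16 of 17 genes lower and a median log2 fold change of -0.0887. Its catalytic beta subunit gene Atp5b was the most abundant member of all, with 1251 and 1143 FPKM in the Lkb1 siRNA libraries, against 1281 and 1207 FPKM in the control siRNA libraries. The groups overlapped, at a log2 fold change of -0.09 with an SE of 0.0713. Atp5a1, the alpha subunit, had 506 and 472 FPKM, against 500.5 and 485 FPKM in the controls. Atp5c1, the gamma subunit of the central stalk, had 388 and 372 FPKM, against 398 and 392.2 FPKM in the controls. Atp5d, the delta subunit of that stalk, had 375 and 368 FPKM in the Lkb1 siRNA libraries, against 413 and 407 FPKM in the control siRNA libraries. For Atp5d the log2 fold change was -0.19 with an SE of 0.0649, and the edgeR adjusted p was 0.347 without and 0.00206 with the batch block. It was still called with length removed and the block (edgeR adjusted p = 0.0424). Atp5e, the epsilon subunit, stood apart in level at 11.3 and 13.3 FPKM, against 10.8 and 11.1 FPKM in the controls. The 95% interval of its change was the widest of complex V, from -33.2 to 66.1%.

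The ring subunit c of complex V comes from 3 genes that encode the same mature protein. Atp5g3 had 793 and 785 FPKM in the Lkb1 siRNA libraries, against 886 and 805 FPKM in the control siRNA libraries. Atp5g3 differed by -0.17 on the log2 scale (edgeR adjusted p = 0.00938 with the block). Atp5g2 had 719.6 and 769 FPKM after Lkb1 siRNA, against 773 and 844 FPKM in the controls. Atp5g2 differed by -0.18 on the log2 scale (edgeR adjusted p = 0.00468 with the block). With the length trend removed and the block, the edgeR adjusted p was 0.198 for Atp5g3 and 0.158 for Atp5g2. Atp5g1 had 197 and 173 FPKM, against 201 and 171 FPKM in the controls. Of their summed FPKM, Atp5g3 made up 45.9 ± 0.674% in the Lkb1 siRNA libraries and 45.9 ± 2.40% in the control siRNA libraries (SD, n = 2 each). In the same order Atp5g2 made up 43.3 ± 1.74% and 44.0 ± 3.40%, and Atp5g1 made up 10.8 ± 1.06% and 10.1 ± 0.994%. The spread here is that between batches. Within batches the share of Atp5g1 was higher after Lkb1 siRNA in both, at 11.5% against 10.8% in batch 1 and 10.0% against 9.39% in batch 2, a difference that was not tested. Those of Atp5g2 and Atp5g3 differed in opposite directions in the 2 batches. Without control siRNA replicate 1 the log2 fold change of Atp5g3 was -0.076.

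Around the ring, Atp5o, the subunit that ties the peripheral stalk to the catalytic head, had 398 and 381 FPKM in the Lkb1 siRNA libraries, against 403 and 422 FPKM in the control siRNA libraries. Atp5o differed by -0.13 on the log2 scale (edgeR adjusted p = 0.0444 with the block, and 0.392 with the length trend removed as well). Atp5l, subunit g, had 595 and 583 FPKM, against 575 and 553 FPKM in the controls. It was higher in FPKM and, at -0.01 on the log2 scale, lower in counts. The count-based value turned to 0.023 with library size alone as the scaling. Atp5k, subunit e, had the lowest fold change of the class in this fit, -0.20, with an SE of 0.0992. Its value was -0.06 with the length trend removed, where Atp5d at -0.13 was lower, -0.034 with library-specific length, and between -0.31 and -0.094 with 1 library left out. Its implied length of only 51.5 nt, and those of Atp5md, Ndufb1 and Ndufa3, all below 100 nt, make their FPKM uncertain.

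The Ndufaf factors, which help to build complex I and are not part of the finished enzyme, were low and varied most. Ndufaf8, known in human cells as a partner of NDUFAF5, had 41.1 and 43 FPKM in the Lkb1 siRNA libraries, against 62.9 and 49.8 FPKM in the control siRNA libraries. For Ndufaf8 the log2 fold change was -0.49 with an SE of 0.158, and the edgeR adjusted p was 0.319 without and 0.00198 with the batch block. It had the largest change of any member, with log2 fold changes of -0.70 in batch 1 and -0.26 in batch 2. Without control siRNA replicate 1 its log2 fold change was -0.31. It passed with length removed and the block (edgeR adjusted p = 0.019). Ndufaf5 itself, which modifies Ndufs7, had 9.16 and 6.94 FPKM, against 10.2 and 9.14 FPKM in the controls. Ndufaf5 differed by -0.20 on the log2 scale (edgeR adjusted p = 0.301 with the block). Ndufaf7, a methyltransferase, had 16 and 16 FPKM, against 18.5 and 17.4 FPKM in the controls. Neither gene passed the edgeR test, with an adjusted p of 0.0519 for Ndufaf7 with the block. Ndufaf4, known for a part in early assembly, ran the other way at 5.41 and 4.39 FPKM, against 4.54 and 3.39 FPKM in the controls. It had a log2 fold change of 0.27 with an SE of 0.168 that did not pass and ran from 0.057 to 0.51 with 1 library left out. Its partner Ndufaf3, at 4.38 and 2.88 FPKM, against 2.79 and 4.1 FPKM in the controls, differed in sign between the batches, with 0.58 in batch 1 and -0.52 in batch 2. Over the 8 genes the median log2 fold change was -0.0350.

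**Figure D4:**
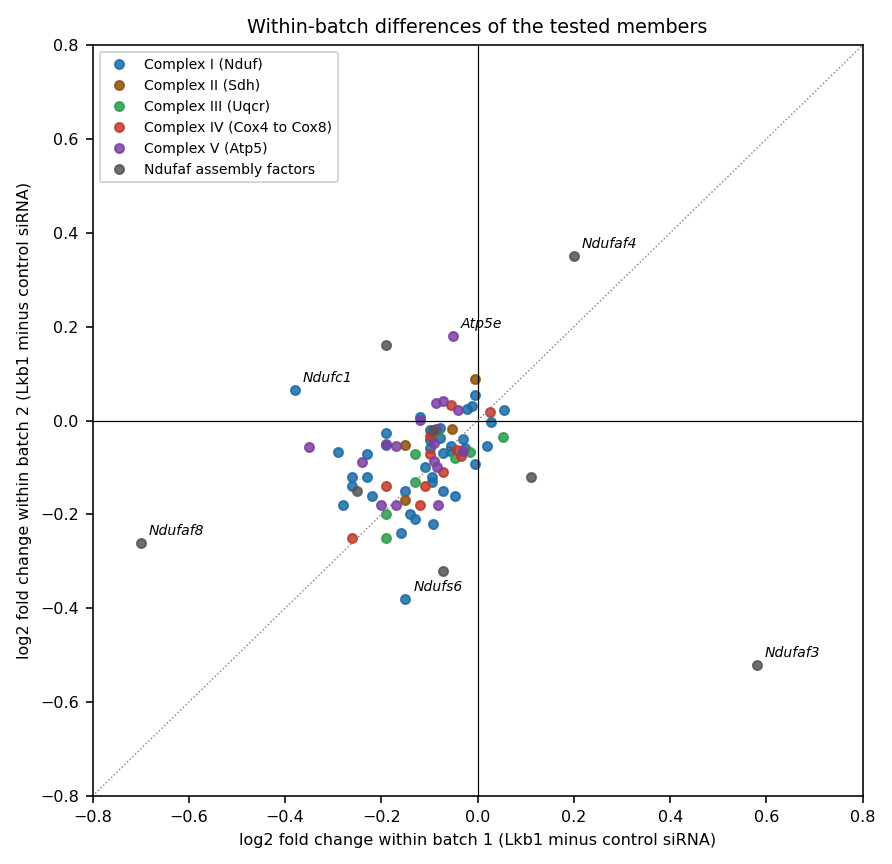
The log2 fold change (Lkb1 siRNA minus control siRNA) within batch 1 on the x axis and within batch 2 on the y axis for each tested member, 1 library per group and batch. Of the 87 points, 66 lie below 0 on both axes, and Ndufaf3 and Ndufaf8 lie farthest from the centre.

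Between the batches, with batch 2 set against batch 1, 63 of the 87 members were lower in batch 2 and the median log2 difference was -0.0410. Of all 12222 genes tested 5926 were lower in batch 2, with a median of 0.005. Without the siRNA group in the fit edgeR called 0 members, as it called 0 of all 12222 genes. At an unadjusted p below 0.05 there were 4 members, where the background was 10.1%. With the siRNA group in the fit edgeR called 7 of the 87, all lower in batch 2, a share near the 6.62% of all genes called lower. Over all 12222 genes 1579 were called in either direction, 809 of them lower. The 7 were Ndufs8, Ndufab1, Uqcrq, Cox5b, Atp5b, Atp5g1 and Ndufaf4. The largest of them in a subunit was Atp5g1, with a log2 difference of -0.22 (edgeR adjusted p = 0.000986). It had 173 FPKM in batch 2 and 197 FPKM in batch 1 after Lkb1 siRNA. With control siRNA it had 171 FPKM in batch 2 and 201 FPKM in batch 1. The siRNA difference of this gene was smaller, at -0.06.

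At the level of transcripts, 181 RefSeq transcripts of the members were listed and 142 tested, and edgeR called 0 of them, with and without the batch block, as it called 0 of all 34279 transcripts tested. At an unadjusted p below 0.05, 12 were lower and 1 higher, where 6.75% of all transcripts passed, and the smallest adjusted p was 0.687. For 71 of the tested member genes 1 transcript held at least 90% of the FPKM in every library. Among genes with several, a minor transcript of Ndufs1, picked out after its values were seen, made up 8.61 and 8.90% of the gene in the Lkb1 siRNA libraries, against 12.4 and 12.5% in the control siRNA libraries.

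Other genes of the pathway were counted from lists drawn up for this description, none of which held a gene that passed without the block. The TCA cycle, which feeds complexes I and II, had 12 of 14 tested genes lower and a median log2 fold change of -0.0801, where 49.8% of all genes were lower. With the block 4 of the 14 were called lower and 0 higher, where 6.99% of all genes were called lower and 6.59% higher. Suclg2, a subunit of the GDP-forming succinyl-CoA ligase, had 63.7 and 63.9 FPKM in the Lkb1 siRNA libraries, against 73 and 74.2 FPKM in the control siRNA libraries. For Suclg2 the log2 fold change was -0.23 with an SE of 0.0642, and the edgeR adjusted p was 0.27 without and 0.000134 with the batch block. Sucla2, of the ADP-forming ligase, had 45.2 and 47 FPKM, against 50.8 and 54.3 FPKM in the controls. Ogdh, of the oxoglutarate dehydrogenase, had 45.8 and 42.4 FPKM, against 48.2 and 47.3 FPKM in the controls, and for all 3 genes both Lkb1 siRNA libraries were below both controls. The log2 fold change of Ogdh was -0.15, and -0.089 without Lkb1 siRNA replicate 2. These genes are longer than most subunit genes, and with the length trend removed 3 of the list were still called lower with the block and the median was -0.0608.

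Of 15 carriers of electrons and nucleotides 14 were lower, with a median log2 fold change of -0.0779, where 49.8% of all genes were lower. The block called 4 of the 15 lower and 0 higher, where it called 6.99% and 6.59% of all genes, and 3 with the length trend removed, at a median of -0.0508. Gpd2, the mitochondrial glycerol-3-phosphate dehydrogenase that feeds ubiquinone, had 13.1 and 12.3 FPKM in the Lkb1 siRNA libraries, against 17.4 and 16.9 FPKM in the control siRNA libraries. For Gpd2 the log2 fold change was -0.47 with an SE of 0.0727, and the edgeR adjusted p was 0.074 without and 3.22e-14 with the batch block. Etfb, which carries electrons from fatty acid oxidation, had 105 and 111 FPKM, against 123 and 124 FPKM in the controls. Etfb differed by -0.24 on the log2 scale (edgeR adjusted p = 0.00079 with the block). Ucp2, a carrier of the inner membrane, had 24.5 and 28.7 FPKM after Lkb1 siRNA, against 29.7 and 34.4 FPKM in the controls. Ucp2 differed by -0.31 on the log2 scale (edgeR adjusted p = 0.000458 with the block). The groups did not overlap in FPKM for these 3 genes, and Ucp2 differed by -0.20 without Lkb1 siRNA replicate 1.

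Of 47 tested assembly factors without the Ndufaf prefix 30 were lower and 17 higher, with a median of -0.0362, where 49.8% of all genes were lower. With the block 2 of the 47 were called lower and 0 higher, no larger a share than the 6.99% of all genes called lower. With the length trend removed the median was -0.00563 and 1 was called lower. Cox17, a copper chaperone for complex IV, had 189.8 and 172 FPKM, against 189.9 and 210.0 FPKM in the controls. Cox17 differed by -0.25 on the log2 scale (edgeR adjusted p = 0.0176 with the block). It was not called once length was also taken out, with an edgeR adjusted p of 0.233 with the length trend removed and 0.0897 with library-specific length. Higd1a, known to bind complex IV, had 12 and 12.3 FPKM, against 16.7 and 12.9 FPKM in the controls. Higd1a differed by -0.32 on the log2 scale (edgeR adjusted p = 0.0116 with the block). Without control siRNA replicate 1 its value was -0.11. Regulators of mitochondrial biogenesis ran the other way. Of 18, 13 were higher and 5 lower, with a median log2 fold change of 0.0595, where 50.2% of all genes were higher. The values of the 18 ran from -0.863 to 0.256, so the largest change was a fall. The gene lowest in level had 0.1225 FPKM. With the block 4 of the 18 were called higher and 1 lower, where 6.59% of all genes were called higher and 6.99% lower. Gabpa, the DNA-binding subunit of a factor that binds ETS letters, had 26.3 and 26.8 FPKM in the Lkb1 siRNA libraries, against 22.6 and 22.5 FPKM in the control siRNA libraries. For Gabpa the log2 fold change was 0.20 with an SE of 0.0649, and the edgeR adjusted p was 0.325 without and 0.00209 with the batch block. Polrmt, the mitochondrial RNA polymerase, had 10.3 and 10.6 FPKM, against 8.92 and 8.19 FPKM in the controls. Polrmt differed by 0.26 on the log2 scale (edgeR adjusted p = 0.00823 with the block). Myc, a transcription factor, had 20.1 and 15.9 FPKM, against 23.4 and 21.2 FPKM in the controls. Myc differed by -0.34 on the log2 scale (edgeR adjusted p = 2.05e-05 with the block). Without Lkb1 siRNA replicate 2 its value was -0.18, and without replicate 1 it was -0.52. These regulators have a median implied length of 3196 nt, and with the length trend removed their median was 0.0512. The 13 protein genes of mitochondrial DNA were not analysed here.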

How the data were processed

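RNA-seq was made from JoMa1.3 cells, 2 libraries per siRNA group, and grouped by the labels' treatment. RSEM 1.2.8, HISAT2 2.0.4 and Bowtie2 2.2.5 on build GRCm39 are named, without roles, in the submitters' processing notes; the annotation is not given in the sources used here. The gene and transcript tables hold, per the file headers, a read count, which is an expected count estimated by the authors, an FPKM and a TPM per library, and a normalised read count, a signal the authors made with 1 factor per library, which entered no test. In 31 cells of the gene table and 73 of the transcript table used here a doubled decimal point was read as 1. The tables' 8 columns of group means each were not used.

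Rounded counts went into edgeR 4.0.16 under R 4.3.3 (TMM, robust quasi-likelihood F-test, filter with minimum count 10, 12222 genes), with p-values adjusted by Benjamini-Hochberg over all genes tested and called at 0.05. SE was derived from the F statistic of the fit without the block. Alternatives were DESeq2 1.42.0, limma 3.58.1 on log2(FPKM + 1) and log2(FPKM + 0.1), other filters and scaling, each library left out, a loess trend on log length (span 0.3) removed, and an offset for library-specific length, the last chosen after seeing the data. Length is the count divided by FPKM and library total, an effective length and not an annotated transcript length. Pairing follows the labels, which give libraries of the same number 1 batch; their deviations from the group means correlated at 0.259 over all genes and 0.0315 over members. As far as the labels say, the libraries may be technical repeats, so p-values measure the spread between these libraries. With the block they measure the spread left after the batch difference is taken out. In simulated counts for this comparison, on 12150 genes, edgeR recovered 23.5% of genes changed by 0.3 on the log2 scale, 80.3% at 0.6 and 87.5% at 1. It called 8 of 11952 unchanged genes. These counts had the same dispersion for all genes, covered all levels, held no batch or length effect and were fitted without the block. No change smaller than 0.3 was simulated.

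Values of 1 member are not reported here by gene, though counts and medians include it. The members, lists and rules were chosen with earlier results of these data known. Genes named are Stk11, complex II, members passing with or without the block, the smallest p, highest and lowest level and largest changes of each class, isoform groups, members whose batches differ in sign by more than 0.2 each (log2), and up to 3 genes of each list; Ndufv1, Ndufs1, Ndufa11, Uqcrc2, Atp5a1 and Atp5c1 were added after their values were seen. Sequences are RefSeq's, on GRCm38.p6, and no other coordinates are given since the files use GRCm39.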

Additional observations from a re-analysis of the deposited data

How the results depend on the processing

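With the batch as a replicate block, which the labels' pairing allows, 19 members were called lower, and 854 genes lower and 806 higher over the whole table; the block called 0 members higher and turned no sign among the named genes. With the length trend removed and the block, the counts were 5 members, 802 genes lower and 722 higher; with library-specific length and the block they were 12, 791 and 834. Over all genes, lower and higher calls were 1 and 2 with library size alone, 32 and 13 with at least 1 count in any library, 2 and 2 when genes needed 5 CPM on average, 31 and 18 with DESeq2 and 0 and 0 with limma on either FPKM scale. Leaving out 1 library gave between 42 and 143 genes lower, between 24 and 136 higher, and 0 to 2 members lower; the 2, Ndufa12 (adjusted p = 0.0457) and Ndufaf8 (adjusted p = 0.0302, edgeR), were called without control siRNA replicate 2, where the lone control library is assumed to vary like the other group. Between the batches, 7 members were called lower in batch 2 with the siRNA group in the fit, where 6.62% of all genes were. Without that group 0 members and 0 of all genes were called.

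The median log2 fold change of the members stayed below 0 in every setting run: -0.0560 with library size alone, -0.0323 and, with the block, -0.0314 with length removed, -0.0594 and -0.0585 with library-specific length, -0.0331 and -0.0334 with limma on log2(FPKM + 1) and log2(FPKM + 0.1), and -0.122 to -0.0595 with 1 library left out. In that order of settings complex I gave -0.0716, -0.0391, -0.0391, -0.0681, -0.0676, -0.0484 and -0.0488, and -0.126 to -0.0706. Complex IV gave -0.0531, -0.00122, -0.00112, -0.0544, -0.0538, -0.0211 and -0.0212, and -0.143 to -0.0432. Complex V gave -0.0560, -0.0438, -0.0442, -0.0479, -0.0477, -0.0385 and -0.0385, and -0.119 to -0.0575. Complex III gave -0.0493 with library size alone, -0.0334 and -0.0327 with length removed, -0.0293 and -0.0294 with limma, and -0.155 to -0.0337 with 1 library left out. Complex II gave -0.0368 with library size alone, -0.0516 and -0.0513 with length removed, -0.0629 and -0.0625 with library-specific length, -0.0300 and -0.0302 with limma, and -0.0921 to -0.0473 with 1 library left out. The Ndufaf genes gave 0.0132 and 0.0123 with length removed, -0.000126 with limma on log2(FPKM + 1), and -0.194 to -0.0585 with 1 library left out. Over all genes tested the median was 0.000494 in the main fit and 0.0329 with library size alone. With limma it was 0.0299 on log2(FPKM + 1) and 0.035 on log2(FPKM + 0.1).

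Among 47 named genes, 18 of 704 values turned sign. Sdhc turned with length removed (0.0074, and 0.0073 with the block) and with limma (0.0057 on both scales). Atp5l turned with library size alone (0.023), length removed (0.083 with and without the block), library-specific length (0.030, and 0.031 with the block), and limma (0.063 and 0.064), and without control siRNA replicate 1. With 1 library left out, Sdhd ran from -0.028 (without control siRNA replicate 2) to 0.11, Ndufb7 from -0.027 (without Lkb1 siRNA replicate 1; -0.012 without control siRNA replicate 2) to 0.11, and Uqcrfs1 from -0.026 (without Lkb1 siRNA replicate 1) to 0.048. Likewise Ndufaf3 ran from -0.30 (without Lkb1 siRNA replicate 1; -0.21 without control siRNA replicate 1) to 0.32, and Atp5l from -0.046 to 0.027. The cause was not tested. Stk11 was not called with library size alone (adjusted p = 0.0633) or with limma on log2(FPKM + 1) (adjusted p = 0.163). With 2 libraries per group, fold changes as small as those of most members are below what the test recovers often, so an absent call does not show an equal level.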
